A study of Mus musculus with 8 samples.

Results

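The oxidative phosphorylation genes of the embryonic mouse cortex were taken as all symbols of the deposited gene tables that begin with mt-, Nduf, Sdh, Uqcr or Atp5, or with Cox followed by a digit from 4 to 8. This rule found 113 of the 14166 measured genes. Of these, 19 lie on the mitochondrial genome and 94 on nuclear chromosomes. The tissue was the dorsal telencephalon, the part of the embryonic forebrain that forms the cortex, dissected from C57BL/6J mice at E15.5, flash frozen and turned into suspensions of nuclei. There were 4 wildtype samples and 4 samples from Pantr2 knockouts (Pantr2-/-), in which a long noncoding RNA gene is disrupted. Each was profiled with droplet single-nucleus RNA sequencing (10x 3′ chemistry, version 2), in which a unique molecular identifier (UMI) marks each captured RNA molecule. Levels are given as CPM, the UMIs of a gene per 1000000 UMIs of its sample or cluster. The samples are called wildtype 1 to 4 and knockout 1 to 4 after the numbers in their titles.

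Oxidative phosphorylation is carried out in the inner mitochondrial membrane by complexes I to IV, which pass electrons from NADH and succinate to oxygen and, except for complex II, pump protons, and by complex V, the ATP synthase, which the returning protons drive. The mitochondrial genome encodes core subunits of complexes I, III, IV and V together with the ribosomal and transfer RNAs that translate them. The other subunits, all of complex II and the assembly factors are read from nuclear genes and imported. In the developing cortex, progenitors are known for a larger share of glycolysis and neurons for reliance on oxidative phosphorylation. A preparation of nuclei holds few mitochondria, and mitochondrial RNA found in it was carried along with the nuclei or free in the suspension.

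By role, the nuclear members comprised 37 subunits of complex I, 4 of complex II, 8 of complex III, 16 of complex IV and 17 of complex V, with 8 assembly factors of complex I and 4 of complex II. The mitochondrial members comprised 13 mRNAs, 2 rRNAs and 4 tRNAs. All 113 passed the count filter when the UMIs of each sample were summed over its nuclei.

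The 8 samples held 7280 to 10921 nuclei each, 67319 in all, and 20446698 to 34083796 UMIs per sample, with medians of 2570 to 2905 UMIs per nucleus. Any pair of libraries shared 8 to 30 cell barcodes, at most 0.371% of the smaller library. The files divide the nuclei into 7 clusters. Cluster 1 (14604 nuclei) was upper-layer neuron-like, with 4 of 6 measured markers highest there, Cux1, Cux2 and Pou3f1 among them. The other 2, Unc5d and Mdga1, were highest in cluster 5. The summed list stood at 9658 CPM in cluster 1 and 9374 in cluster 5 in wildtype, and at 7005 and 8127 in knockout. Clusters 2 (11679 nuclei) and 3 (11583 nuclei) were deep-layer neuron-like. Of 9 measured markers 4 were highest in cluster 2, Bcl11b and Fezf2 among them, and 5 in cluster 3, Tbr1, Tle4 and Foxp2 among them. Cluster 4 (10948 nuclei) was apical progenitor-like, with the highest level of 10 of 10 measured markers, Pax6, Hes5 and Nes among them. Cluster 5 (7826 nuclei) had the highest Eomes, Neurog2 and Btg2, markers of intermediate progenitors, but Unc5d, from the upper-layer list, was among its 10 leading genes, so it is called by its number, as are clusters 6 (5479 nuclei) and 7 (5200 nuclei). Reads of Pantr2 were not analysed here, so the genotype rests on the labels.

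The difference between the genotypes that passed the test in every cluster concerned mt-Nd3, which has a nuclear copy with a single base of difference in the annotated sequences. mt-Nd3, which encodes a core membrane subunit of complex I, lies on the plus strand of the mitochondrial genome at positions 9459 to 9806 (GRCm38). Gm28438 is a copy of it on chromosome 1, at 24612775 to 24613119. Over the 345 aligned bases of the 348 in mt-Nd3 the copy had 1 substitution, T3C, counted from 1 at the first base of mt-Nd3 (mitochondrial position 9461). The first 30 bases of both genes are shown 5′ to 3′, with the differing base in capitals.
mt-Nd3: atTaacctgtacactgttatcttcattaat
Gm28438: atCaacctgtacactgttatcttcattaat

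The wildtype samples held 1479, 4766, 4373 and 9288 UMIs of mt-Nd3, and the knockout samples 20, 120, 57 and 74. The order was reversed for Gm28438, with 1, 3, 1 and 2 UMIs in wildtype and 3257, 7983, 9513 and 3866 in knockout. Neither gene's groups overlapped, and in each library nearly all UMIs of the pair fell on 1 of the 2 genes. mt-Nd3 was lower in knockout by a fitted log2 change of -6.16 (SE 0.56; edgeR quasi-likelihood test, Benjamini-Hochberg adjusted p = 0.000239). It was the one member called over all nuclei, of 113, where 5.26% of all 13927 genes tested were called, 3.58% as lower in knockout. No fold is given for Gm28438, whose 1 to 3 UMIs in each wildtype library make it depend on the prior count.

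Summed over both genes, the UMIs were 1480, 4769, 4374 and 9290 in wildtype and 3277, 8103, 9570 and 3940 in knockout, so that the groups overlapped. The summed level was 194 ± 115 CPM in wildtype and 248 ± 107 in knockout (SD, n = 4 each), a log2 change of 0.37 (SE 0.44; edgeR adjusted p = 0.711). The direction of mt-Nd3 thus turned when the copy's UMIs were added to it. The same held in the 7 clusters, where mt-Nd3 alone had log2 changes between -7.53 and -5.70 with edgeR adjusted p from 1.39e-05 to 0.00069, and the sum had log2 changes between 0.27 and 0.56 with edgeR adjusted p from 0.571 to 0.83. All libraries are labelled C57BL/6J, and the source of the split between the 2 genes was not tested.

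**Figure D1:**
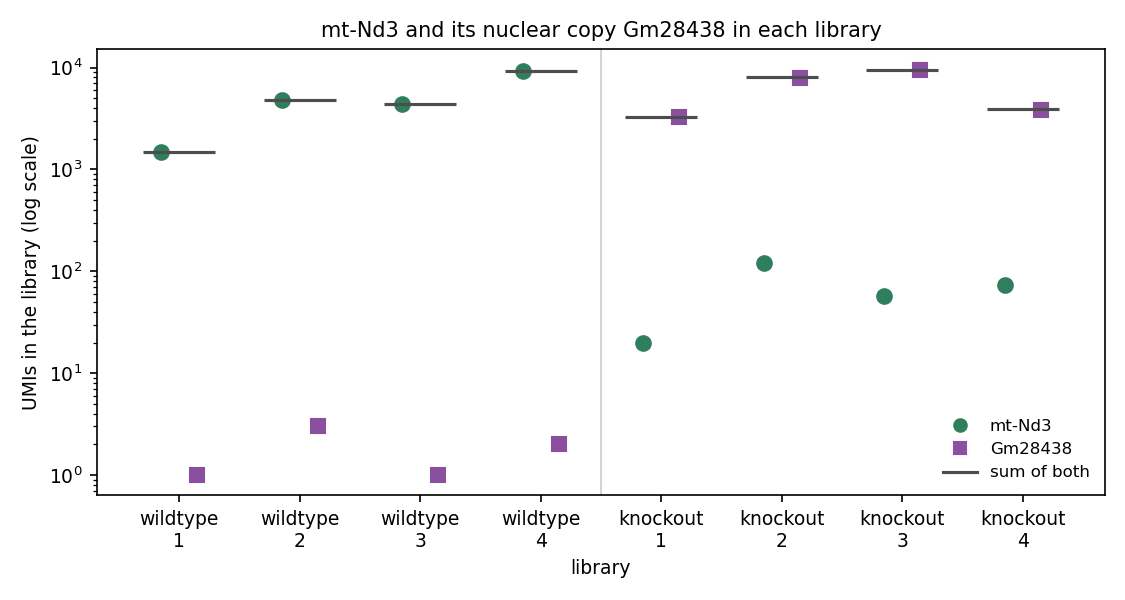
UMIs of mt-Nd3 (green circles), of its nuclear copy Gm28438 (purple squares) and of both together (grey lines) in each of the 8 libraries, on a log scale. The wildtype libraries hold 1479 to 9288 UMIs of mt-Nd3 and 1 to 3 of the copy; the knockout libraries hold 20 to 120 and 3257 to 9513, while the sums of the 2 groups overlap.

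Other members also have near-identical copies, where the counting can split reads. Against the annotated transcripts, 9 mitochondrial members had a nuclear copy of at least 95% identity. The copies of mt-Atp6, mt-Co2, mt-Co3 and mt-Nd4l were identical to them over nearly their whole length, and that of mt-Nd4 over 63.6% of it. Gm28438 was the only copy with a row of its own in the gene tables. Values of these mitochondrial genes, and of the 27 nuclear members with copies, are therefore less certain. For mt-Cytb, mt-Nd1, mt-Nd6, mt-Atp8 and the rRNAs no such copy was found. The search kept only matches of at least 150 bases, so it could not find copies of the tRNAs, which are 67 to 71 bases long. A copy outside the annotated transcripts would be missed too.

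Levels of the mitochondrial genes spanned a wide range when expressed per length. A UMI marks a molecule whatever its length, so division by length raises short genes and the order is not one of molecule numbers. Over the 8 samples mt-Ta, of 69 bases, had 6922 UMIs and mt-Co1, of 1545 bases, 65125, although mt-Ta stands higher per kilobase. In CPM per kilobase, the wildtype mean was highest for mt-Cytb, the mitochondrially encoded subunit of complex III, at 4588. It was 2619 for mt-Rnr2, the large ribosomal RNA, and 647 for mt-Rnr1, the small one. Among the complex I subunits, mt-Nd4 stood at 2381, mt-Nd1 at 2373 and mt-Nd2 at 2180, mt-Nd6 at 640, mt-Nd3 at 556, mt-Nd5 at 122 and mt-Nd4l at 67.9. Of the complex IV subunits, mt-Co1 stood at 206 and mt-Co2 at 10.3 CPM per kilobase, the lowest of the mitochondrial members, with mt-Co3 between mt-Atp6 and mt-Nd4l. The ATP synthase subunits mt-Atp8 and mt-Atp6 stood at 203 and 80.4, and the tRNAs mt-Ta, mt-Tp, mt-Ti and mt-Tq at 356, 126, 66.5 and 43.7. The wildtype means of mt-Nd4, mt-Nd1 and mt-Nd2 lay closer together than their SDs over the wildtype samples (385, 380 and 321). Whether these genes differ within libraries was not tested. mt-Nd6 and mt-Nd5 share 14 bases on opposite strands, and the sources used here do not say whether counting used the strand.

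**Figure D2:**
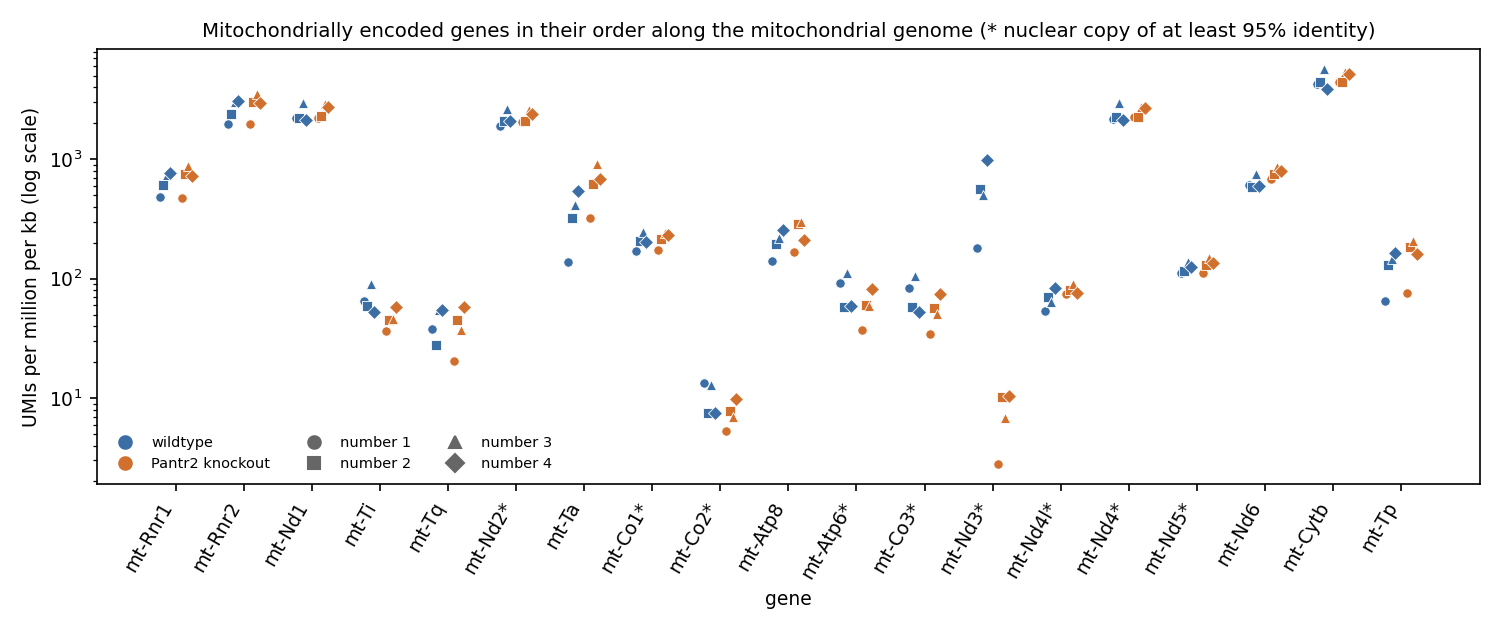
Level of each mitochondrially encoded gene, in CPM per kilobase on a log scale, in the 4 wildtype (blue) and 4 knockout (orange) samples, over all nuclei, in the order of the genes along the mitochondrial genome. The wildtype means run from 10.3 for mt-Co2 to 4588 for mt-Cytb, and mt-Nd3 is the gene whose 2 groups lie far apart.

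Mitochondrial genes gave 1.66, 1.81, 2.31 and 1.86% of all UMIs in the wildtype samples and 1.70, 1.92, 2.32 and 2.13% in the knockouts. The groups overlapped, with means of 1.91 ± 0.280% and 2.02 ± 0.266% (SD, n = 4 each). Nuclear members gave 0.704, 0.792, 0.783 and 0.748% in wildtype and 0.749, 0.816, 0.789 and 0.825% in knockout, with means of 0.756 ± 0.0400% and 0.795 ± 0.0344%. Over all nuclei, both shares were higher in the knockout sample than in the wildtype sample of the same number for 4 of 4 numbers, by 0.00689 to 0.270 percentage points for the mitochondrial and 0.00619 to 0.0773 for the nuclear genes. The difference of the means was smaller than 1 pooled SD for the mitochondrial share and close to 1 for the nuclear share. These shares, sums over chosen members, were described without a test. Within clusters 1, 2, 6 and 7 the mitochondrial share was again higher in knockout for 4 of 4 numbers, in cluster 3 for 3, in cluster 5 for 2 and in cluster 4 for 1. Its means in wildtype and knockout were 1.90 and 2.13% in cluster 1, 2.28 and 2.66% in cluster 7, and 1.77 and 1.64% in cluster 4, the one cluster with the lower mean in knockout. The nuclear share had the lower knockout mean in cluster 4, at 0.815 against 0.804%, and in cluster 5, at 0.851 against 0.848%, and the higher one in the other clusters.

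Across clusters the mitochondrial share, averaged over both genotypes, was highest in cluster 7 and lowest in the apical progenitor-like cluster 4. It went from 2.47% there to 2.14% for cluster 3, 2.02% for cluster 1, 1.95% for cluster 6, 1.84% for both 2 and 5, and 1.71% for cluster 4. Cluster 7 stood above cluster 4 in 7 of 8 samples and above clusters 2 and 6 in 8 of 8. The exception was wildtype 1, where cluster 4 had the highest share, 1.84%, and cluster 7 stood at 1.63%. Over the wildtype samples alone clusters 2, 4 and 6 had the same mean, 1.77%, and the knockout samples placed cluster 4 last. Because the clusters were made from the same nuclei, these differences carry no test.

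The nuclear members showed another order. Their mean share of UMIs over the samples was 0.823, 0.751, 0.728, 0.810, 0.850, 0.733 and 0.711% for clusters 1 to 7 in turn, so that cluster 5 came first and cluster 7 last. Cluster 7 was below each of clusters 1 to 5 in 8 of 8 samples, and cluster 5 above cluster 1 in 6 of 8. The ratio of mitochondrial to nuclear members was therefore lowest in clusters 4 and 5, at 2.11 and 2.16, and highest in cluster 7, at 3.45 with a range of 2.60 to 4.30 over the samples.

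Depth per nucleus moved with both shares. In the 25% of nuclei with the fewest UMIs in each sample the mitochondrial share averaged 1.56% and the nuclear share 0.922%, against 2.15% and 0.662% in the 25% with the most. The median depth was lowest in clusters 1 and 5, at 2391 and 2389 UMIs, and highest in cluster 7, at 3096. In clusters 2, 3, 4 and 6 it was 2790, 3009, 2917 and 2910. The order of depth matched that of neither share in full, cluster 4 being deeper than cluster 1 with the lower mitochondrial share. The part of depth in the differences between clusters was not tested.

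**Figure D3:**
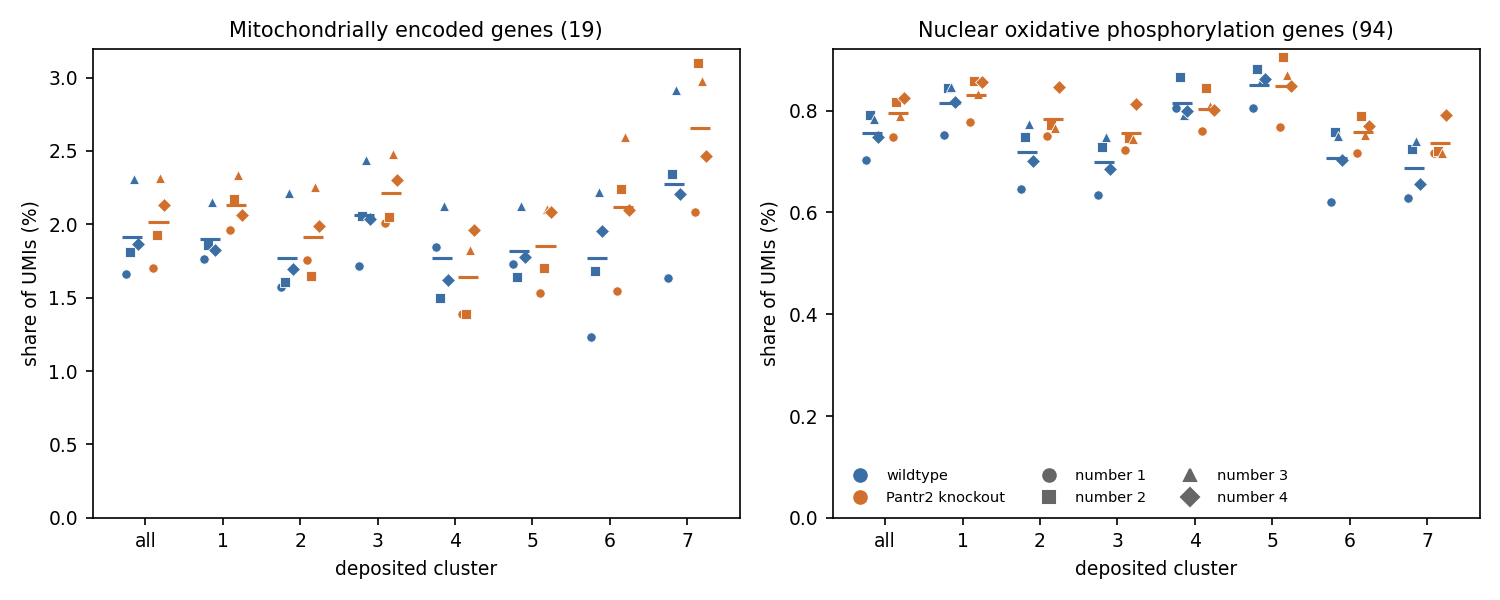
Share of all UMIs (percent) from the 19 mitochondrially encoded genes (left) and the 94 nuclear genes (right) in each sample, over all nuclei and in each deposited cluster; points are samples, with the marker shape giving the sample number, and bars are means of 4. Cluster 7 has the highest mitochondrial and the lowest nuclear mean share over the 8 samples, and the 2 genotypes overlap over all nuclei on both sides.

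Gene by gene, 88 nuclear members reached 10 CPM in at least 1 cluster. For 43 of them cluster 5 had the highest mean over samples, for 24 it was cluster 4, for 19 cluster 1, and 41 were lowest in cluster 7. Among all 10061 genes at this level, 21.1, 42.2 and 8.32% peaked in clusters 5, 4 and 1, and 12.3% were lowest in cluster 7. By complex, of 36 complex I subunits 16 peaked in cluster 4 and 12 in cluster 5, and of the 4 complex II subunits 3 peaked in cluster 4. Cluster 5 held the peak of 7 of 8 complex III subunits, 7 of 12 complex IV subunits and 10 of 17 complex V subunits. Of 16 mitochondrial members at this level, 14 peaked in cluster 7 and 2 in cluster 3, against 8.19 and 7.38% of all genes.

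The nuclear members with the widest range between clusters all peaked in the apical progenitor-like cluster 4. Ndufc2, an accessory subunit of complex I, had a wildtype mean of 363 ± 70.4 CPM there and 160 ± 13.6 in cluster 2, a ratio of 2.27. Atp5g2, which encodes the c subunit of the ATP synthase rotor, stood at 17.8 ± 4.88 against 8.06 ± 1.03 in cluster 3, a ratio of 2.21. Sdhd, a membrane anchor of complex II, stood at 48.9 ± 12.9 against 23.6 ± 4.34 in cluster 2. Ndufs8, an iron-sulfur core subunit of complex I, stood at 44.1 ± 9.35 against 22.2 ± 3.81 in cluster 7. For all 4 genes the level in the first cluster exceeded that in the second in 8 of 8 samples. The genes and clusters were picked by the wildtype means, so this order was largely set in advance for the wildtype samples. Many members with a narrower range, such as Ndufa13 and Sdhc, also had 8 of 8 samples in the order of their own clusters. These levels compare a gene with itself and are not per length.

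Nuclear respiratory genes are known for promoters bound by NRF1, by ETS factors such as GABP, and by YY1. In RefSeq promoters (GRCm38.p6, 250 bases before to 50 after each gene's start, both strands), an NRF1 motif (in capitals in its matches shown here) was present in 21 of 79 matched nuclear members, 26.6%, against 10.7% of 10778 genes. The ETS letters CCGGAAG were in 22 of 79, 27.8%, against 18.4% of genes, and the YY1 letters AAGATGGCG in 8 of 79, 10.1%, against 3.28%. The ends of these motifs can overlap, and 43 of 79 members (54.4%) held at least 1, against 28.9% of genes. Matches in the genes with the widest range between clusters are shown 5′ to 3′ on the gene's strand with the motif in capitals, CTTCCGG being the ETS letters on the other strand. No match was found in the window of Ndufc2. A match is a stretch of letters and not a measured site.
Sdhd, NRF1, chr9:50603909-50603938, minus strand: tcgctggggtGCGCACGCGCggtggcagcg
Sdhd, ETS, chr9:50603877-50603906, minus strand: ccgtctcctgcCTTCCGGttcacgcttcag
Atp5g2, NRF1, chr15:102671070-102671099, minus strand: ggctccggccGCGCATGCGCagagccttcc
Ndufs8, ETS, chr19:3912741-3912770, minus strand: ttaggctccgcCTTCCGGttgaaccgcatc

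Between genotypes, the nuclear members differed little over all nuclei. None of 94 was called at an adjusted p under 0.05, by edgeR or by DESeq2 (which called 8.72% of all genes), and 3 had an unadjusted edgeR p under 0.05 (4 by DESeq2). Of all 113 members, 6 had an unadjusted p under 0.05, or 5.31%, against 19.1% of all genes. The fitted changes leaned upward, with 90 members (79.6%) above 0 and a median log2 change of 0.07, against 50.3% and 0.00 over all genes tested.

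The nuclear subunits of each complex, summed in CPM, overlapped between the groups over all nuclei. Complex I gave 2682 ± 146 in wildtype and 2810 ± 97.5 in knockout (SD, n = 4 each). Complex II gave 217 ± 17.2 and 226 ± 11.8, and complex III 662 ± 40.5 and 698 ± 51.8. Complex IV gave 1875 ± 95.2 and 1974 ± 74.9, and complex V 1814 ± 150 and 1921 ± 140. The assembly factors gave 186 ± 3.19 and 185 ± 5.34 for complex I and 129 ± 5.36 and 134 ± 5.49 for complex II. In each of the 5 complexes the knockout mean over all nuclei was the higher one, and the groups overlapped. Within clusters, the summed complex IV subunits did not overlap in cluster 2, at 1621 to 1883 CPM in wildtype and 1916 to 2154 in knockout, nor in cluster 3, at 1567 to 1842 against 1851 to 2012, and in cluster 7 the groups met without overlap. The complex II assembly factors did not overlap in cluster 1, at 128 to 133 against 136 to 139. All other sums of this kind overlapped in every cluster. These sums had no test. Over all nuclei 11.7% of single genes had groups without overlap. That share was not counted within any cluster, so groups without overlap inside a cluster have no such share beside them. In cluster 4 the means were lower in knockout for complex I (3089.9 and 2994.6 CPM), complex II (280.0 and 274.6), complex IV (1938 and 1918) and complex V (1837 and 1833), with overlapping groups.

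The subunit with the most wildtype UMIs in each complex gave the same picture. Ndufc2 stood at 231, 243, 212 and 188 CPM in wildtype and 240, 219, 217 and 224 in knockout. Sdhb, the iron-sulfur subunit of complex II, stood at 96.1, 90.2, 89.2 and 82.5 against 101, 89.3, 91.8 and 98.6. Uqcrh, the hinge protein of complex III, stood at 192, 218, 214 and 218 against 203, 236, 221 and 234. The groups of these genes overlapped, with log2 changes of 0.05, 0.10 and 0.10. Ndufa4, now counted as a subunit of complex IV, stood at 241, 299, 295 and 263 against 272, 298, 284 and 304. Atp5pb, a subunit of the peripheral stalk of the ATP synthase, stood at 158, 212, 207 and 173 against 163, 185, 186 and 214. These groups overlapped too, with log2 changes of 0.09 and 0.01.

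Only 3 members had groups that did not overlap over all nuclei, where 11.7% of all genes had such groups. Besides mt-Nd3 they were Cox5b and Sdhaf4, named here after their values were seen. Cox5b, a nuclear subunit of complex IV, stood at 55.3, 61.6, 60.2 and 58.6 CPM in wildtype and 63.4, 68.0, 69.4 and 64.6 in knockout (log2 change 0.18, SE 0.06; edgeR adjusted p = 0.138). Sdhaf4, an assembly factor of complex II, stood at 34.3, 35.1, 35.2 and 33.2 against 40.1, 36.1, 37.7 and 41.3 (log2 change 0.18, SE 0.06; edgeR adjusted p = 0.124). Neither was called.

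With the replicate number as a block, 4 members were called over all nuclei, where 9.65% of all genes were. They were mt-Nd3, mt-Ta with a log2 change of 0.91 (edgeR adjusted p = 0.00643), mt-Nd6 with 0.29 (edgeR adjusted p = 0.0224) and Cox5b with 0.18 (edgeR adjusted p = 0.0356). The levels of mt-Nd6, the complex I subunit read from the opposite strand of the mitochondrial genome to the other mRNAs, were 319, 305, 395 and 311 CPM in wildtype and 354, 389, 450 and 411 in knockout. Those of mt-Ta, the alanine tRNA at mitochondrial positions 5018 to 5086, were 9.53, 22.4, 28.5 and 37.8 against 22.4, 43.2, 63.4 and 47.2. In both genes the groups overlapped, and the knockout sample was higher for 4 of 4 numbers.

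Sums over all nuclei mix the clusters in their proportions, and summed markers of some cell types differed between the groups. Summed endothelial markers gave 16.1 to 16.5 CPM in wildtype and 10.6 to 12.1 in knockout, microglial markers 7.45 to 9.53 against 5.87 to 6.19, and interneuron markers 35.7 to 60.3 against 15.7 to 42.7. Upper-layer markers gave 3698 to 4526 against 2945 to 3599, and deep-layer markers 6496 to 7853 against 7654 to 8600. The groups overlapped for the interneuron and deep-layer lists. They also overlapped for the apical and intermediate progenitor, Cajal-Retzius, erythroid and pericyte or meningeal lists. No measured marker of any list was at 0. Their part in the values over all nuclei was not tested.

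Within the clusters, 11 calls fell on members, and mt-Nd3 in each of the 7 clusters made up 7 of them. Clusters 1 to 3 had 2, 3 and 2 members called, and clusters 4 to 7 had 1 each. Of all genes tested, 4.84, 9.11, 3.36, 4.29, 1.77, 0.779 and 1.03% were called in clusters 1 to 7, against 0.926 to 2.73% of the members tested, so that only in cluster 6 was the members' share the larger one.

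The other 4 calls were of mt-Nd6, mt-Ta and Sdhaf1, all higher in knockout. In cluster 1, mt-Nd6 stood at 324, 309, 367 and 308 CPM in wildtype and 439, 439, 484 and 428 in knockout. The groups were well apart, with a log2 change of 0.48 (SE 0.07; edgeR adjusted p = 0.00129), and the call held without each of the 8 samples in turn. In cluster 3 the groups of mt-Nd6 did not overlap but nearly met, wildtype 3 lying just below knockout 2. The means there were 292 ± 36.3 and 361 ± 27.2 (log2 change 0.33, edgeR adjusted p = 0.0655). In that cluster mt-Nd6 was called by DESeq2 (adjusted p = 0.0414) and with the replicate block (edgeR adjusted p = 0.00316). In cluster 4 its means were 371 ± 59.9 and 364 ± 71.6.

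mt-Ta in cluster 2 stood at 8.61, 15.1, 23.7 and 30.4 CPM in wildtype and 25.7, 37.5, 61.0 and 39.9 in knockout. The groups overlapped, and the log2 change was 1.11 (SE 0.31; edgeR adjusted p = 0.0414). In cluster 3 it stood at 8.36, 20.6, 24.5 and 32.5 against 29.7, 49.3, 65.4 and 42.5, a log2 change of 1.12 (SE 0.28; edgeR adjusted p = 0.0445). The knockout sample was higher than the wildtype sample of the same number in every cluster. The call in cluster 2 was lost with DESeq2 (adjusted p = 0.139), with sex as a covariate (edgeR adjusted p = 0.0586) and without each of wildtype 1 and 2 and knockout 2, 3 and 4, where edgeR adjusted p rose to at most 0.156. That in cluster 3 was lost with DESeq2 (adjusted p = 0.167), with the sex covariate (edgeR adjusted p = 0.0575) and without each of wildtype 1, 2 and 3 and knockout 2, 3 and 4, where edgeR adjusted p rose to at most 0.165.

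Sdhaf1, which helps insert iron-sulfur clusters into Sdhb, was the only nuclear member called in any cluster. In cluster 2 it stood at 19.4, 19.9, 21.0 and 17.3 CPM in wildtype and 31.6, 23.4, 24.8 and 24.7 in knockout. The groups did not overlap, and the log2 change was 0.42 (SE 0.12; edgeR adjusted p = 0.0415). The call held without wildtype 3 and was lost without each other sample (edgeR adjusted p from 0.0501 to 0.115), with DESeq2 (adjusted p = 0.0711) and with the sex covariate (edgeR adjusted p = 0.0652). The gene lies on chromosome 7 at 30321406 to 30323895 and overlaps a gene on the opposite strand, E130208F15Rik, by 1733 bases, so that reads of the 2 cannot be told apart if counting ignored the strand. In cluster 2, summed upper-layer markers averaged 2976 CPM in wildtype and 1292 in knockout and deep-layer markers 9499 and 13452; their part in the changes there was not tested.

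Short of the threshold, clusters 2, 3 and 7 held the most nuclear members with an unadjusted edgeR p under 0.05. They numbered 20 of 91 in cluster 2, of which 18 were higher in knockout, 19 of 90 in cluster 3, with 17 higher, and 12 of 90 in cluster 7, with 11 higher. Of all genes, 21.0, 15.3 and 9.68% were below this level in the same clusters. The median log2 change of the nuclear members was 0.14, 0.13 and 0.12 in these clusters and 0.02 in clusters 4 and 5, against 0.00 to 0.01 over all genes.

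With the replicate block, 37 calls fell on members over the 7 clusters, 28 on mitochondrial and 9 on nuclear genes, with all 11 of the unblocked calls among them. They numbered 7, 9, 7, 2, 1, 5 and 6 in clusters 1 to 7, where 6.86, 10.4, 5.48, 4.03, 1.79, 2.4 and 2.42% of all genes were called. The nuclear ones in cluster 2 were Ndufa2, Ndufa13, Uqcr11, Atp5mpl, Atp5j2 and Sdhaf1, and in cluster 3 Cox4i1, Cox5b and Ndufb6. mt-Nd6 was called in clusters 1, 2, 3, 6 and 7, with log2 changes of 0.49, 0.33, 0.34, 0.41 and 0.42, and mt-Nd1 and mt-Cytb in clusters 1, 6 and 7. The calls other than mt-Nd3 were all higher in knockout.

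**Figure D4:**
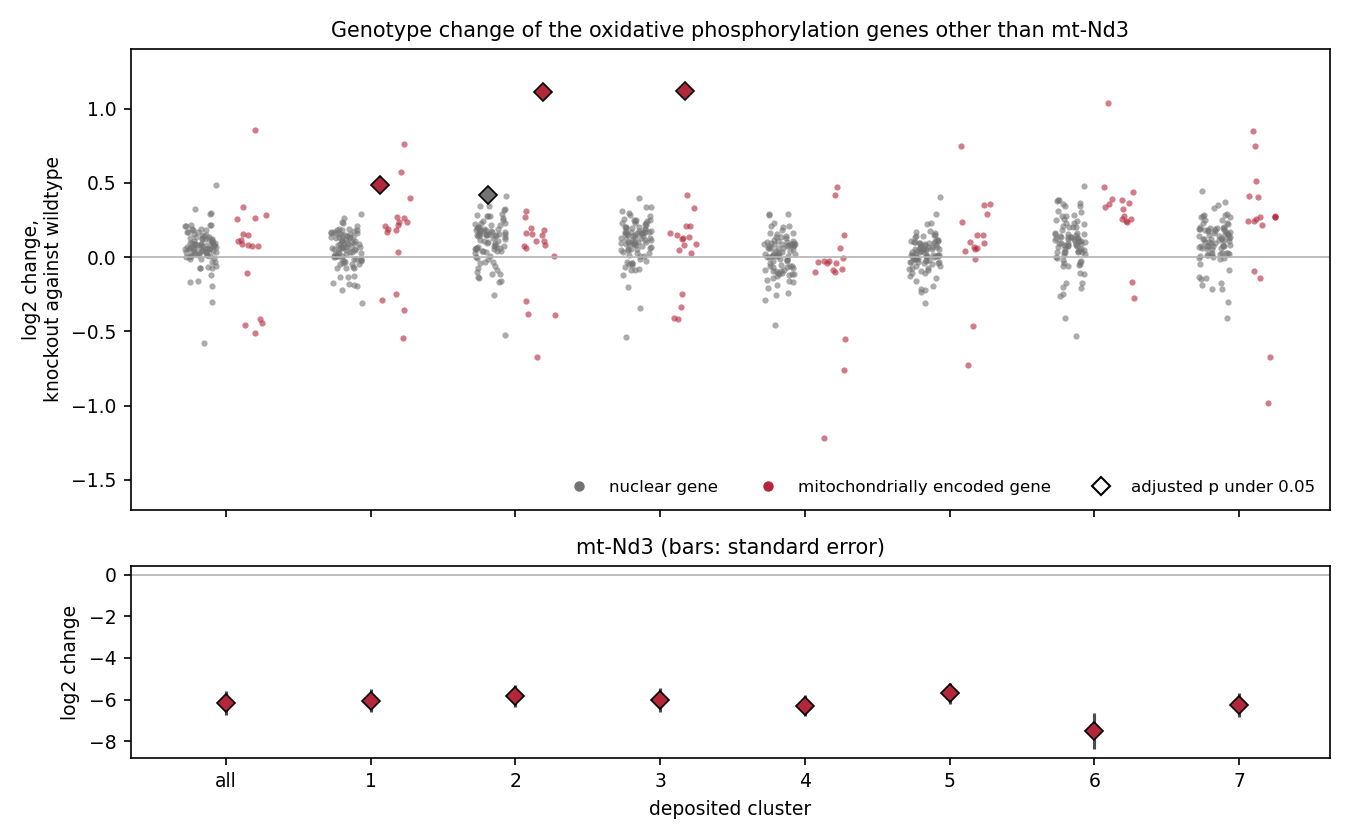
Fitted log2 change of knockout against wildtype for the nuclear (grey) and mitochondrially encoded (red) members other than mt-Nd3 (top) and for mt-Nd3 with its standard error (bottom), over all nuclei and in each deposited cluster; diamonds mark an edgeR adjusted p under 0.05. Most grey points lie slightly above 0, 4 diamonds appear in clusters 1 to 3 of the top panel, and mt-Nd3 lies between -7.53 and -5.70 in the clusters.

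The genotype change differed between clusters for 2 members, Ndufc2 and mt-Co2, by the edgeR quasi-likelihood test of all genotype by cluster terms together; of 12933 genes tested, 9.12% differed in this way. In cluster 4, Ndufc2 stood at 443, 398, 319 and 291 CPM in wildtype and 297, 293, 305 and 273 in knockout. These groups overlapped, and the log2 change there was -0.29 (SE 0.11), whereas it was 0.18, 0.17, 0.14 and 0.20 in clusters 1, 2, 3 and 7 (edgeR adjusted p of the difference = 0.00789). Without wildtype 1, its highest sample in cluster 4, the adjusted p of the difference was 0.101. No cluster's own change of Ndufc2 was called.

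mt-Co2, a core subunit of complex IV, had the fewest counted UMIs of the mitochondrial mRNAs, 1213 over the 8 samples. A nuclear copy without a row of its own is identical over 99.6% of it, so this count need not reflect its abundance. In cluster 4 it stood at 10.5, 4.32, 9.76 and 5.55 CPM in wildtype and 2.05, 3.46, 3.66 and 3.97 in knockout. The groups did not overlap there (log2 change -1.22, SE 0.32; edgeR adjusted p = 0.0574), and the change was called by DESeq2 (log2 change -1.21, adjusted p = 0.0266) and without wildtype 2 (edgeR adjusted p = 0.0292). Cluster 6 had a log2 change of 0.36 and cluster 7 of -0.99 (edgeR adjusted p of the difference = 0.00955). The difference between clusters missed the threshold without wildtype 3 (edgeR adjusted p = 0.065) and without knockout 2 (0.0669).

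**Figure D5:**
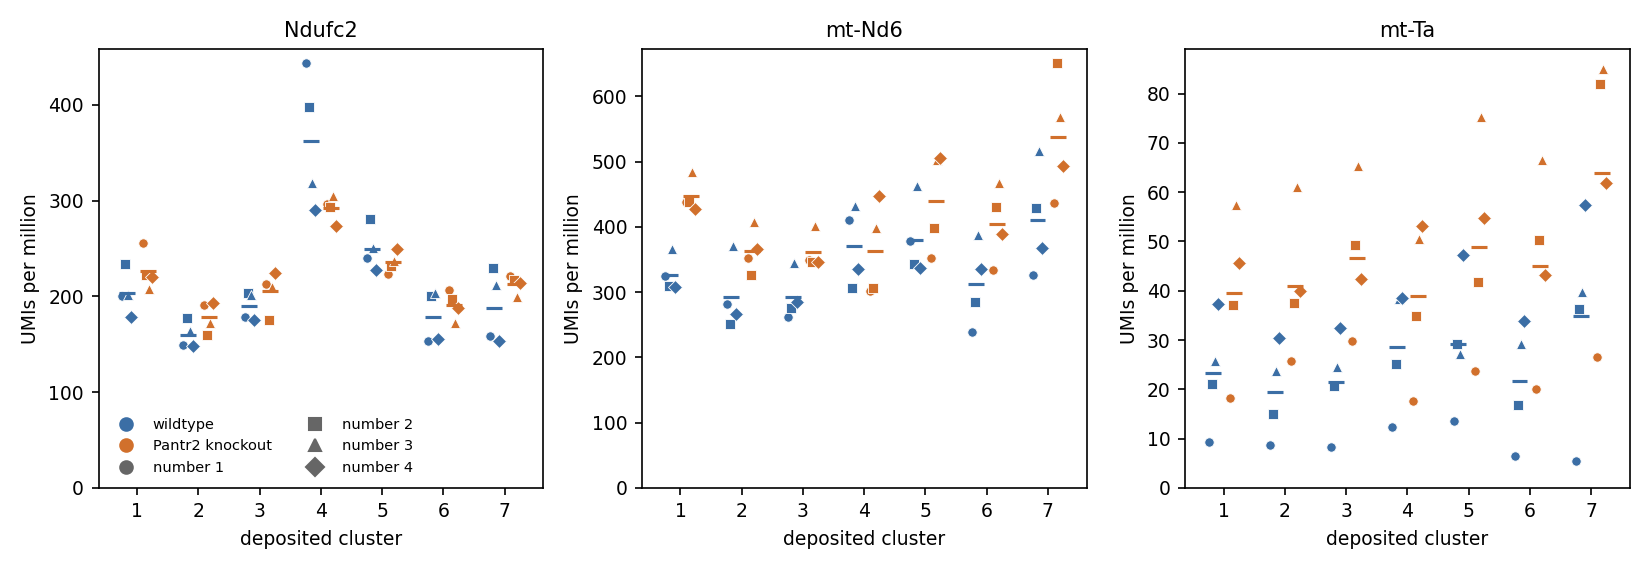
Levels of Ndufc2, mt-Nd6 and mt-Ta in CPM in each sample and deposited cluster, with wildtype in blue, knockout in orange, marker shapes for the sample numbers and bars for the means of 4. Wildtype Ndufc2 averages 363 in cluster 4 and 160 in cluster 2, and the groups of mt-Nd6 do not overlap in clusters 1 and 3.

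The make-up of the mitochondrial RNA varied between libraries. The rRNAs made up 21.1 to 30.1% of mitochondrial UMIs, lowest in knockout 1 and wildtype 1 and highest in wildtype 4. mt-Nd6 made up 1.67 to 1.92% in wildtype and 1.93 to 2.08% in knockout, so that its groups lay next to each other without overlap.

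Other genes of energy metabolism were read from 5 lists, to be set against the 5.26% of all genes called over all nuclei. Of 37 measured subunits and assembly factors outside the symbol rule none was called over all nuclei by edgeR or DESeq2, and none had an unadjusted edgeR p under 0.05; their median log2 change was 0.03. None of 23 genes for mitochondrial DNA transcription, replication and RNA handling was called by either tool, with 1 at an unadjusted edgeR p under 0.05. Among 10 measured regulators of mitochondrial biogenesis 2 were lower in knockout. Esrrg, an oestrogen-related receptor, went from 69.3 ± 3.17 to 50.1 ± 6.84 CPM (log2 change -0.46, SE 0.10; edgeR adjusted p = 0.0246), and Myc, a growth-promoting transcription factor, had a log2 change of -0.60 (SE 0.15; edgeR adjusted p = 0.0451). Within clusters, Esrrg was lower in knockout in cluster 2 (log2 change -0.50, edgeR adjusted p = 0.0117) and cluster 3 (log2 change -0.43, edgeR adjusted p = 0.0013). Ppargc1a was lower in cluster 4 (log2 change -0.42, edgeR adjusted p = 0.0251).

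In the citric acid cycle list 1 of 18 genes was called, a share near that of all genes. Sucla2, which encodes a subunit of the ATP-forming succinyl-CoA synthetase, fell from 61.4 ± 4.40 to 38.5 ± 1.89 CPM (log2 change -0.66, SE 0.06; edgeR adjusted p = 0.000169), and the call held without each of the 8 samples in turn. It was also called in clusters 1 to 5 and 7, always lower in knockout. Of 21 glycolysis and lactate genes 2 were called, both lower, although the list's median log2 change was 0.13. Over all nuclei Pfkp, a phosphofructokinase, had a log2 change of -0.44 (edgeR adjusted p = 0.0203) and Hk1, the first kinase of glycolysis, of -0.34 (edgeR adjusted p = 0.0304). Within clusters, Slc16a1, a lactate transporter, was higher in knockout in cluster 1 (log2 change 0.51, edgeR adjusted p = 0.0302). Pgam1, a glycolytic mutase, was higher in cluster 2 (log2 change 0.33, edgeR adjusted p = 0.0195). Lower in knockout were Hk1 in cluster 1 (log2 change -0.44, edgeR adjusted p = 0.0158) and Pfkp in cluster 2 (log2 change -0.49, edgeR adjusted p = 0.00812). Slc2a3 was also lower in cluster 2 (log2 change -0.39, edgeR adjusted p = 0.0227). The calls of Esrrg, Myc, Pfkp and Hk1 over all nuclei were lost when some samples were left out. That of Pfkp was lost without wildtype 4, knockout 2 or knockout 3 (edgeR adjusted p up to 0.0756), and that of Esrrg without wildtype 2, 3 or 4 or knockout 2 or 3 (up to 0.0937). Hk1 kept its call only without wildtype 1 or knockout 4 (edgeR adjusted p up to 0.0958 otherwise), and Myc only without wildtype 3 or knockout 4 (up to 0.145 otherwise).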

How the data were processed

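The deposited files hold whole UMI counts per gene and nucleus, made by the authors with kallisto and bustools against mm10, per the submitters' processing notes; versions, annotation, strand use and nucleus filters are not given in the sources used here. Cluster numbers of nuclei and doublet scores were deposited too, per the file headers; the hybrid score was under 0.5 in every library, and no doublet caller was run. UMIs per nucleus recorded there exceed the matrix sums by 0.653 to 0.958%.

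Counts were added up over the nuclei of each sample, and again within each cluster (every sample held at least 50 nuclei in each), and tested with edgeR 4.0.16 in R 4.3.3 (TMM, filterByExpr, quasi-likelihood F test, genotype only), with Benjamini-Hochberg adjustment over all genes tested and a threshold of 0.05. A joint fit with the sample as a block tested genotype by cluster terms. Levels are UMIs per 1000000 (CPM). Shares and cluster orders have no test. The scripts were tested on simulated data. Nothing in the labels says that samples came from separate animals, so p-values measure the spread between these samples. Same-numbered samples deviated together from their group means, with correlations of 0.179 to 0.398 in 4 of 4 pairs and -0.356 to 0.287 between other numbers. The highest of the latter, wildtype 3 with knockout 4, exceeded the 0.179 of wildtype 4 with knockout 4, so the pairing is uncertain. The labels do not say what a number marks. Numbers were taken as pairs in the replicate block and in comparisons by number, and not in the main fits. Alternatives were RLE factors, no count filter, library totals without mitochondrial genes, members summed with copies, DESeq2 1.42.0, the replicate block, a sex covariate (Xist expressed in 3 wildtype and 2 knockout samples) and leaving out each sample.

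Members and lists were chosen with earlier results of these data known. Named were all mitochondrial members averaging at least 10 UMIs a sample, nuclear members called, the leading subunit of each complex by wildtype UMIs, the 4 nuclear members with the widest cluster range, members with a genotype by cluster difference, transcribed copies and called list genes. Copies were found with BLAST+ 2.17.0. Printed positions are GENCODE M21 (GRCm38), matched by gene ID, since only 352 of 14162 matched genes had that position in the gene tables.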

Additional observations from a re-analysis of the deposited data

Results flagged for a closer look

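In 90 groups of 4 samples checked for a sample standing apart, 6 had a gap to the nearest sample above Dixon's critical share of the group's range; chance gives about 1 in 20. Wildtype 3 stood above the other wildtype samples in mt-Nd1 (gap 0.861 of the range; 2811 CPM against 2029 to 2138), in mt-Nd4 (0.871; 4070 against 2954 to 3098) and in mt-Nd6 (0.844; 395 against 305 to 319). Uqcrh was low in wildtype 1 (0.842; 192 against 214 to 218), and Ndufs8 was low in knockout 2 (0.836; 26.4 against 29.8 to 30.4). The nuclear share in cluster 7 was high in knockout 4 (0.936; 0.791% against 0.716 to 0.721%).

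The change between genotypes differed between clusters for Ndufc2 (edgeR adjusted p = 0.00789) and mt-Co2 (edgeR adjusted p = 0.00955), as described above.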

How the results depend on the processing

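Of 839 recomputed values, 8 of a called gene turned direction, those of mt-Nd3 summed with its copies: log2 changes of 0.37 over all nuclei and 0.46, 0.45, 0.29, 0.27, 0.37, 0.56 and 0.55 in clusters 1 to 7. With copies summed, 0 members were called over all nuclei (5 at an unadjusted edgeR p under 0.05) and 4 within clusters. With the replicate block the counts were 4 over all nuclei, 37 within clusters and 5 in the glycolysis list, and the block ended none of the 11 calls within clusters. The sex covariate left 1 glycolysis gene called. Leaving out 1 sample in turn gave 1 to 2 members over all nuclei (2 without wildtype 3), 8 to 17 calls within clusters (17 without wildtype 3), 1 to 7 members with a genotype by cluster difference (7 without wildtype 3, 6 without knockout 4, 1 without wildtype 1), 0 to 2 biogenesis genes and 0 to 3 glycolysis genes. The knockout minus wildtype difference of the mitochondrial share ranged from 0.00806 to 0.241 percentage points and of the nuclear share from 0.0206 to 0.0536 over these. Another 20 values, all of genes not called (Atp5pb, Ndufc2, Ndufs8, Sdhd, mt-Co1, mt-Nd2 and mt-Tq), crossed 0. Of the single-gene values, 48 of 698 lost a call that the main fit had made and 3 gained a call. Values of members at a few CPM, such as mt-Co2, rest on few UMIs. Those of mt-Co2 also have the limit of its identical nuclear copy.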
